A study of Mus musculus with 36 samples.

Results

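The microRNAs (miRNAs) described here come from the Dlk1-Dio3 imprinted domain of mouse chromosome 12. They were chosen by name, as all listed mature miRNAs carrying 1 of 48 miRNA numbers assigned to this domain. The rule uses no measured value, although it was written with earlier results of these data known. 41 of the 48 numbers had at least 1 row, which gave 63 mature miRNAs, from 44 hairpins, of the 624 miRNAs listed for the small RNA libraries. The protein and long non-coding genes of the domain were taken from the matching table of 16415 genes, and Meg3, Rian, Mirg and Dlk1 were all listed there.

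The RNA came from left ventricles of C57BL/6 mice, males operated on at 8 weeks of age. In the MI (myocardial infarction) groups the proximal left anterior descending coronary artery was ligated, and the sham groups had the operation without ligation. Collection was after 1 day (early stage), after 1 week (middle stage) or after 8 weeks (late stage), and ventricles were pooled before the RNA was made. Each of the 6 groups had 3 small RNA libraries and 3 mRNA libraries, 18 of each kind. The labels do not say how many animals a library holds, so p-values measure the spread between these libraries, which may in part be technical.

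Imprinted genes are read from the chromosome of 1 parent only. In the Dlk1-Dio3 domain the maternal chromosome gives the non-coding RNAs Meg3, Rian and Mirg together with a long row of small RNAs, and the paternal chromosome gives the protein-coding genes Dlk1, Rtl1 and Dio3. Several of the miRNA hairpins lie opposite the coding part of Rtl1, whose transcript they match perfectly because both come from the same stretch of DNA. The maternal non-coding RNAs are widely held to be made as a long unit starting at Meg3, and the miRNAs are plentiful in the embryo and in brain and low in most other adult tissues.

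The 44 hairpins spanned 171.8 kb, chr12:109571990-109743795 of the mouse build GRCm38.p6, and 43 of them lay on the plus strand, as do Meg3, Rian and Mirg. By position they fell into 4 groups. Beside Meg3 (chr12:109540996-109571729), 8 mature miRNAs came from 5 hairpins that overlap exon sequence of Rtl1 on the opposite strand. Another 9 miRNAs, antisense to the Rtl1 coding region, also came from 5 hairpins in an Rtl1 exon. Introns of Rian (chr12:109603945-109661716) held 2 hairpins with 1 listed miRNA each. The other 44 miRNAs came from 32 hairpins around Mirg (chr12:109734981-109749458), of which 25 lay between annotated genes, 5 in introns of Mirg, 1 in an exon of Mirg and 1 partly in such an exon. The single hairpin on the minus strand was Mir299b, which lies opposite Mir299a.

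The mature sequences of the members that carry the results are given from RefSeq for this build, with the seed, bases 2 to 8, in capitals. 60 of the 63 members had a sequence in that table. The first set holds the most abundant member of the cluster, miR-127-3p, the next most abundant ones, and 2 members with large rises.
miR-127-3p: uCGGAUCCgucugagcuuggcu
miR-411-5p: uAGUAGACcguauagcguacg
miR-434-3p: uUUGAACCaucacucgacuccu
miR-541-5p: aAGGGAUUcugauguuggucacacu
miR-136-3p: aUCAUCGUcucaaaugagucuu
miR-341-3p: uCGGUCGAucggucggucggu
miR-540-3p: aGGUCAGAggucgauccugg

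The second set shows the other arm of 2 of those hairpins, since the arms of these hairpins moved by unequal amounts, together with both arms of Mir376b.
miR-136-5p: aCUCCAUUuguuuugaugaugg
miR-540-5p: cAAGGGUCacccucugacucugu
miR-376b-5p: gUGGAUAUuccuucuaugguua
miR-376b-3p: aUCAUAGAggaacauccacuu

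The last set holds some of the near-identical pairs, because such members can share reads. The first 2 pairs share a seed, and the third pair does not.
miR-379-3p: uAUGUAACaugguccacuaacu
miR-411-3p: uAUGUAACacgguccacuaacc
miR-299a-3p: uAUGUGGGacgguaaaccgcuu
miR-299b-3p: uAUGUGGGacgguaaacc
miR-300-3p: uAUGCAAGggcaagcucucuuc
miR-381-3p: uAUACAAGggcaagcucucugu

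Only 2 seeds were held by more than 1 member, each by 2 members, so nearly every sequenced member had a seed of its own within the cluster. The miR-379-3p and miR-411-3p sequences have 2 mismatches. The miR-300-3p and miR-381-3p sequences have 3 mismatches and differ within the seed. The same holds for miR-376b-3p, shown above, and miR-376a-3p. The listed values of miR-299a-3p and miR-299b-3p were almost the same in every library, at 49.9 and 49.8 in MI 1-week library 1, so these 2 rows appear to hold largely the same reads and are not independent measurements.

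The small RNA libraries held between 12094554 and 39735944 reads assigned to miRNAs, and the 3 MI libraries of the early stage were the shallowest, with at most 15999649. All levels below are CPM (reads of a miRNA scaled to a fixed library total) adjusted between libraries by trimmed mean of M-values (TMM), called scaled CPM, unless another unit is named. The scaling factors ran from 0.703 to 0.822 in the sham libraries and from 1.68 to 1.89 in the MI libraries of the middle stage, so the scaling changes the size of every fold given here. With library totals in place of TMM the median log2 change over all 358 tested miRNAs at 1 week moved from 0.19 to 1.33 and that over the tested members from 2.92 to 4.05. As a share of all miRNA reads without this scaling, the cluster made up 0.215% ± 0.0117 (s.d., n = 3) in the sham group and 3.25% ± 0.443 in the MI group at 1 week.

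The summed level of the 63 members overlapped between the groups 1 day after the operation in scaled CPM, was several times higher with MI at 1 week and had partly come down by 8 weeks. At 1 day the sham libraries held 1937, 1816 and 2292 and the MI libraries 2527, 2247 and 1921 scaled CPM. The MI mean of 2232 ± 303 was 1.11 times the sham mean of 2015 ± 248, and the libraries of both groups overlapped. As a share of reads, without the TMM adjustment, the groups did not overlap at this stage, with 0.129% to 0.161% in sham and 0.213% to 0.275% in MI, a ratio of 1.66. At 1 week the sham libraries held 2515, 2895 and 2692, and the MI libraries held 18920, 20261 and 16327. The MI mean was 18503 ± 2000 against 2700 ± 190, 6.85 times as high, with the groups far apart. In tissue RNA such as this, a change in the number of cells of a type and a change in RNA per cell cannot be told apart. At 8 weeks the sham libraries held 1798, 1549 and 1515 and the MI libraries 5369, 5141 and 8059. This ratio was 3.82, and library 3 of the MI group stood above the other two, whose mean was 5255 ± 161.

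**Figure D1:**
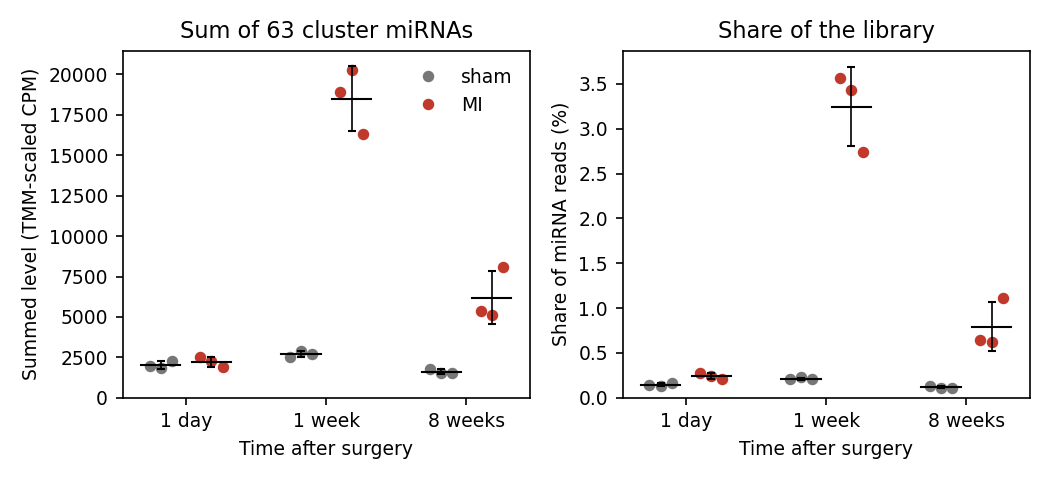
Summed level of the 63 cluster miRNAs in each of the 18 small RNA libraries, in scaled CPM. Each point is a library and bars give mean ± s.d. of 3 libraries, sham in grey and MI in red. The 3 MI libraries at 1 week lie between 16327 and 20261, and every other library is at 8059 or below.

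A single miRNA dominated this sum. miR-127-3p, the mature product of a hairpin antisense to Rtl1, gave 56.0% of the cluster level over the 6 groups, and between 55.1% and 57.9% in each group. miR-411-5p gave another 15.0%, and the 10 most abundant members together gave 93.4%. The ratio at 1 week was 7.20 without miR-127-3p.

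Single members were tested with edgeR's quasi-likelihood test, with adjustment over all 358 miRNAs that reached an RPM (CPM before the TMM adjustment) of 10 in 3 or more libraries. 46 members passed that filter and 17 did not. The filter depends on the MI libraries, since 26 of the 46 passed only with the MI libraries of the middle stage and 11 passed on sham libraries alone. Members that pass through a group where they are high had to differ, so the counts for the 11 members and for all 63 without the filter are given as well.

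At 1 week after MI, miR-127-3p was at 1426, 1686 and 1525 scaled CPM in the sham libraries and at 10149, 11108 and 9312 in the MI libraries. All MI libraries were above all sham libraries by a wide margin, a log2 change of 2.72 ± 0.18 (SE) with an adjusted p of 2.62e-10 by edgeR. Its hairpin (chr12:109592846-109592915) lies in an Rtl1 exon on the opposite strand. miR-411-5p, from a hairpin between annotated genes (chr12:109710175-109710256), was at 375, 408.5 and 409.4 in sham and at 2956, 3245 and 2388 in MI. It rose by 2.85 ± 0.16 on the log2 scale (adjusted p of 4.24e-11). miR-541-5p, from an intron of Mirg (chr12:109742409-109742498), was at 96.1, 100.5 and 103 in sham and at 1256, 1115 and 835 in MI. Its groups were also far apart, with a log2 change of 3.42 ± 0.16 (adjusted p of 3.89e-12).

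All 46 tested members were higher at 1 week and none was lower, where 47.5% of all tested miRNAs were called higher and 39.7% lower. The log2 changes ran from 1.00 for miR-136-5p to 4.29 for miR-679-5p, with a median of 2.92, beside a median of -0.12 over the other tested miRNAs. Of the 50 miRNAs with the largest rises at this stage, 32 were cluster members in this filtered fit and 34 in the fit without the filter. The 11 members that pass on sham libraries alone were all higher too, with a median of 2.85. Without the filter all 63 were called higher, beside 49.2% of all 624 miRNAs, and in all 63 every MI library was above every sham library, which held for 40.7% of the listed miRNAs (40.4% had every MI library below).

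The steepest rises were in members at low levels in sham hearts. miR-679-5p, from the Mirg group, was at 0.589, 0.426 and 0.461 in the sham libraries and at 12.03, 9.86 and 7.15 in the MI libraries. miR-540-3p, from a hairpin beside Meg3 (chr12:109586080-109586146), was at 2.88, 2.41 and 3.30 in sham and at 54.5, 57.4 and 37.1 in MI, a log2 change of 4.12 ± 0.21 (adjusted p of 1.26e-11). miR-341-3p, from a Rian intron (chr12:109611500-109611595), went from 7.03, 7.45 and 6.62 to 115.1, 115.3 and 99.1, a change of 3.96 ± 0.20 (adjusted p of 1.14e-11). In none of these did the groups overlap. miR-380-3p, of the Mirg group, had 3.97 ± 0.26, and miR-370-3p, of the other Rian hairpin, 3.84 ± 0.32. The more abundant miR-381-3p had 3.08 ± 0.19. miR-673-5p and miR-337-5p, also low in sham with means of 6.03 and 9.08 at 1 week, had 2.99 ± 0.14 and 2.74 ± 0.19. miR-494-3p, which did not pass the filter, had the largest change of all in the fit without one, 5.28 ± 0.45.

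Rises were seen along the whole domain. The tested miRNAs beside Meg3 had a median log2 change of 2.81 at 1 week (5 of 8 members tested), those antisense to Rtl1 2.62 (8 of 9), those in Rian 3.90 (both) and those around Mirg 3.07 (31 of 44). At 8 weeks the same medians were 2.29, 1.95, 1.79 and 1.65. No member beside Meg3 or in Rian passed the filter on sham libraries alone. Over all members of each group, in the fit without a filter, the medians at 1 week were 3.37, 3.25, 4.42 and 3.60. The differences between positional groups were not tested, since neighbouring hairpins may come from the same transcript.

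**Figure D2:**
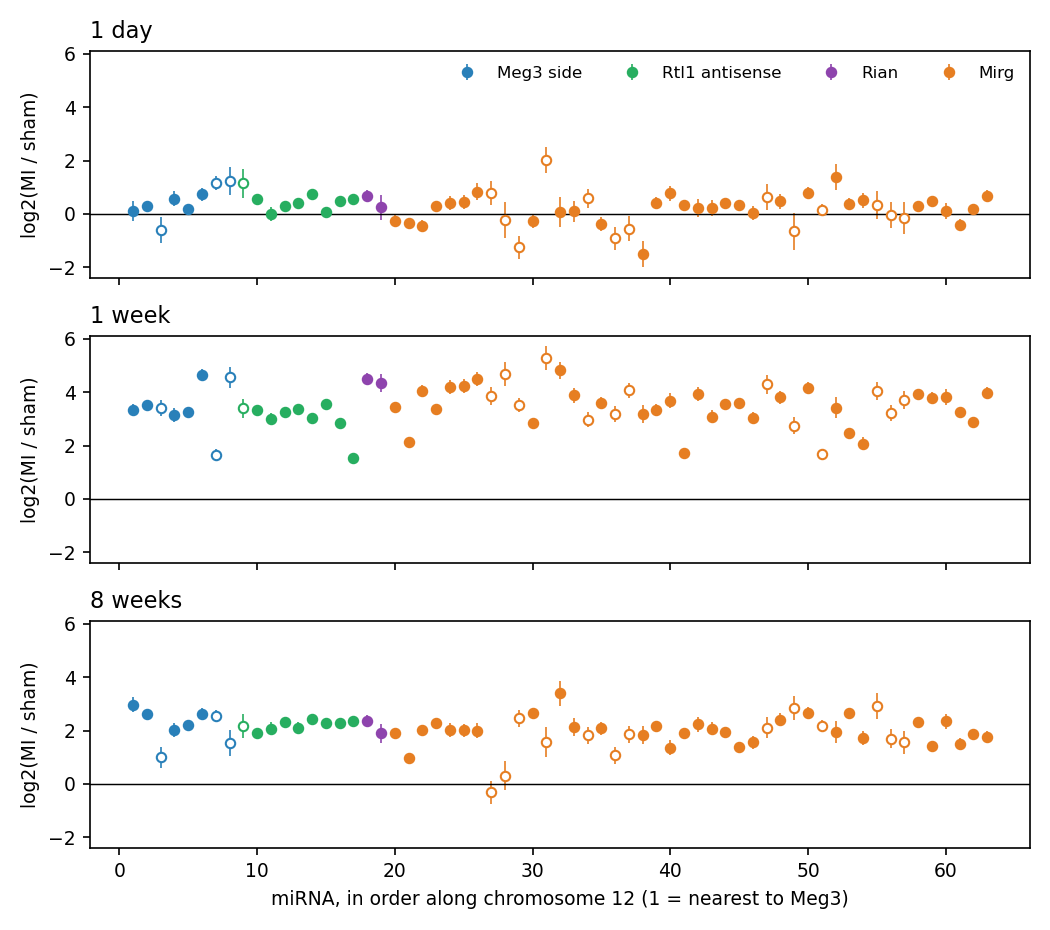
Log2 change of MI against sham for all 63 members at the 3 stages, in the order of their hairpins along chromosome 12, from the edgeR fit without a filter on low counts, in which changes at 1 week are larger than in the filtered fit. Filled points passed the filter and open points did not, bars are standard errors and colours are the 4 positional groups. At 1 week all 63 points lie above 0, and at 8 weeks 62 do.

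At 1 day the cluster showed little change. miR-127-3p was at 1141, 999 and 1316 in the sham libraries and at 1427, 1224 and 1054 in the MI libraries, so the groups overlapped, and the log2 change of 0.10 ± 0.17 did not pass (adjusted p of 0.633). Of the 46 tested members, 5 were called higher and 4 lower, where 27.4% of all tested miRNAs were called higher and 35.2% lower. The 5 were miR-434-3p, miR-134-5p, miR-341-3p, miR-410-3p and miR-485-3p, with log2 changes from 0.48 to 1.19. The 4 were miR-667-3p, miR-411-3p, miR-369-3p and miR-379-5p, which fell by between 0.53 and 1.70. Of the 11 members that pass on sham libraries alone 2 were higher and 1 lower. Without the filter 15 of all 63 were higher and 2 lower, beside 160 and 123 of all 624 miRNAs. Every MI library was above every sham library in 9 of the 63 members and below in another 9, which held for 22.6% and 35.6% of the listed miRNAs.

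Only 1 of these 9 early calls, that of miR-434-3p, was kept under all of 3 other scalings. miR-434-3p comes from a hairpin antisense to Rtl1 (chr12:109594506-109594599). It was at 80.9, 92.5 and 120.0 in sham and at 155.0, 152.2 and 125.0 in MI, and the groups were close but did not overlap (0.56 ± 0.16, adjusted p of 0.00712). The median of the members at 1 day was 0.12 here, -0.06 with upper-quartile scaling and 0.71 with library totals alone. Over the other tested miRNAs these medians were -0.20, -0.39 and 0.38, below that of the members in each of these settings. The sign for the members moved with the scaling, so no direction is given for the cluster at this stage.

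At 8 weeks the cluster was still higher with MI. miR-127-3p was at 1001, 871 and 841 in the sham libraries and at 3013, 2914 and 4820 in the MI libraries, a log2 change of 1.99 ± 0.18 (adjusted p of 2e-08). miR-411-5p was at 268, 212 and 225 in sham and at 816, 756 and 1103 in MI, a change of 1.92 ± 0.16. Library 3 of the MI group was the highest for both, and the groups did not overlap. All 46 tested members were called higher, where 39.4% of all tested miRNAs were higher and 40.5% lower. Their changes ran from 0.64 for miR-379-5p to 3.06 for miR-679-5p, with a median of 1.74 beside -0.28 over the other miRNAs. After miR-679-5p the largest changes were those of miR-673-3p (2.63 ± 0.27) and miR-134-5p (2.33 ± 0.20).

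The 11 members that pass on sham libraries alone were again all called higher, with a median of 1.94. Without the filter 61 of 63 were called higher, beside 34.3% of the 624. The 2 exceptions were miR-323-3p and miR-758-3p, both rare. Their log2 changes at 8 weeks were -0.31 and 0.31, after 3.86 and 4.68 at 1 week. In 57 of the 63, every MI library was above every sham library at 8 weeks, which held for 28.8% of the listed miRNAs.

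The size of the MI effect differed between stages. The effect at 1 week exceeded that at 1 day in all 46 tested members, where 39.7% of all tested miRNAs had a larger and 36.6% a smaller value. From 1 week to 8 weeks the effect became smaller in 35 members and larger in 1, where 33.2% of all tested miRNAs had a lower and 27.4% a higher value. Of the 11 members that pass on sham libraries alone, all had a larger effect at 1 week than at 1 day, and from 1 week to 8 weeks 8 had a smaller and 1 a larger effect. Without the filter 62 of 63 were larger at 1 week, beside 240 of all 624 miRNAs. From 1 week to 8 weeks 50 of the 63 were then smaller and 2 larger, beside 215 and 88 of the 624. Among the 46, the number called smaller was between 28 and 39 under 3 other scalings. For miR-541-5p the fall of 1.45 ± 0.20 had an adjusted p of 1.86e-05. miR-127-3p had a fall of 0.73 ± 0.24 (adjusted p of 0.015), which did not pass with relative log expression (RLE) scaling (adjusted p of 0.073).

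The exception was miR-136-5p, whose hairpin (chr12:109595327-109595388) is antisense to Rtl1. At 1 week it was at 54.1, 63.1 and 55.2 in sham and at 106.6, 131.4 and 106.5 in MI, and at 8 weeks at 55.5, 38.4 and 44.3 in sham and at 168.6, 163.1 and 227.6 in MI. The groups were apart at both stages, and the MI effect grew by 1.02 ± 0.25 on the log2 scale (adjusted p of 0.00224). The opposite arm of the same hairpin, miR-136-3p, had log2 changes of 2.33 at 1 week and 1.95 at 8 weeks, and the difference of -0.37 ± 0.22 did not pass (adjusted p of 0.154).

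Both arms were listed for 19 hairpins, which come from the same precursor and are expected to be made in equal number before the unused strand is lost. In the fit without a filter both arms were called higher in all 19 at 1 week and in all 19 at 8 weeks. At 1 day both arms were called in the same direction in 2. The arms of Mir134, Mir369, Mir411 and Mir666 had opposite signs at that stage, and in none of these were both arms called. The changes of the arms of a hairpin differed by a median of 0.63 at 1 week and 0.25 at 8 weeks on the log2 scale. At 8 weeks all 19 pairs lay within 1 log2 unit, and at 1 week 14 did.

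The 5 pairs outside that range were Mir540, Mir376b, Mir136, Mir379 and Mir134. In the first 4 the 3p arm had risen more, by 3.01, 1.94, 1.33 and 1.32, and in Mir134 the 5p arm had risen more, by 1.41. Hairpins picked after their values were seen are described by the share of reads from the 5p arm. For Mir540 the 5p arm gave 8.39%, 9.19% and 12.5% of the reads in the MI libraries of 1 week and between 42.0% and 65.0% in the other 15 libraries. For Mir136 the same shares were 17.9%, 18.3% and 19.3% against 35.1% to 43.9%. For Mir376b (chr12:109723458-109723539) they were 32.5%, 32.1% and 32.4% against 53.1% to 75.4%. In these 3 the MI libraries of the middle stage stood below every other library. Reads of miR-376b-3p may in part be shared with the near-identical miR-376a-3p, which would enter the shares of Mir376b. For Mir379 the shares at 1 week were 69.0%, 73.3% and 75.8% in MI and 86.3% to 87.6% in sham, and at 8 weeks the MI libraries were also low, with 71.1% to 75.3%. For Mir134, whose 3p arm is rare, the shares at 1 week were 97.5% to 97.8% in MI and 92.9% to 94.7% in sham.

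In Mir127 the 5p arm kept a share between 0.285% and 0.438% in all 18 libraries. A share of reads within a library does not depend on the scaling between libraries. No test of the arm shares was run, and at 8 weeks the shares of Mir540 and Mir136 overlapped between MI and sham, while those of Mir376b were higher in all 3 MI libraries (68.9% to 75.4%) than in sham (59.4% to 65.9%).

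**Figure D3:**
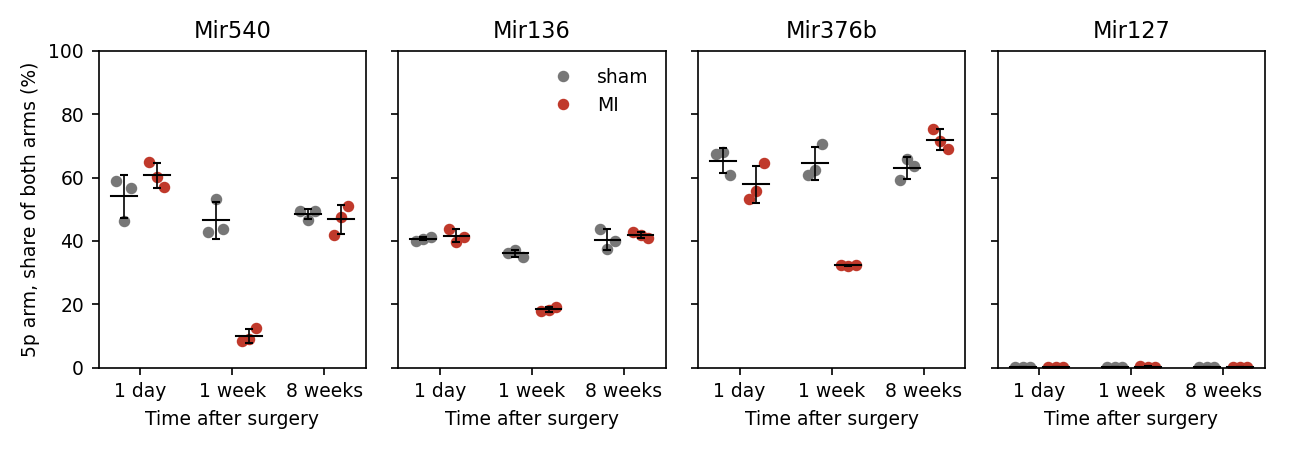
Share of reads from the 5p arm, in percent of the reads of both arms of a hairpin, in each of the 18 small RNA libraries. Each point is a library and bars give mean ± s.d. of 3 libraries, sham in grey and MI in red. For Mir540, Mir136 and Mir376b the 3 MI libraries at 1 week lie below every other library, and for Mir127 the shares stay below 0.5% throughout.

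The cluster also differed between the sham groups, which have no infarct. From 1 week to 8 weeks after the sham operation, 24 of the 46 tested members were lower and none was higher, where 8.38% of all tested miRNAs were called lower and 1.4% higher. These 24 made up 80% of the 30 miRNAs called lower and 52.2% of the tested members. All 46 had a negative change, with a median of -0.74 beside 0.02 over the other miRNAs. Of the 11 members that pass on sham libraries alone 9 were lower. Without the filter 17 of all 63 were called lower, beside 22 of all 624 miRNAs. In 43 of 63 members every 8-week sham library was below every 1-week one, which held for 15.1% of the listed miRNAs.

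miR-127-3p, at the levels given above, fell by 0.77 ± 0.17 between these sham groups (adjusted p of 0.00839), and miR-541-5p by 0.79 ± 0.14 (adjusted p of 0.00241). The 24 calls were all kept under 3 other scalings. The count was 15 without sham library 2 of 1 week, 14 without sham library 2 of 8 weeks and 13 without sham library 3 of 8 weeks.

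From 1 day to 1 week after the sham operation 4 members were higher and none was lower, where 3.07% of all tested miRNAs were called higher and 1.68% lower. They were miR-300-3p, miR-431-5p, miR-434-3p and miR-434-5p. These calls are weak. Their number was 0 without sham library 1 or 2 of 1 day or sham library 2 or 3 of 1 week, between 1 and 2 without sham library 3 of 1 day, sham library 1 of 1 week, sham library 2 or 3 of 8 weeks or any MI library of 1 day, and between 4 and 10 without any other library. 3 of the 11 members that pass on sham libraries alone were among them. Without the filter 2 of 63 were called higher, beside 12 of all 624 miRNAs. The median over members was 0.38, beside -0.06 over the other miRNAs. Both sham comparisons share the 1-week sham libraries, so a deviation of those 3 libraries would enter both. Time since the operation and the age of the mice move together here and cannot be told apart.

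The summed level of 10 markers of activated fibroblasts in the mRNA libraries, in FPKM (fragments scaled by gene length and mapped library total), was followed in the same groups. The sham hearts of the middle stage held 222 to 262, those of the early stage 121 to 149 and those of the late stage 97.6 to 102, so the sum was highest in the sham group with the highest cluster level. Its part in the sham difference was not tested.

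**Figure D4:**
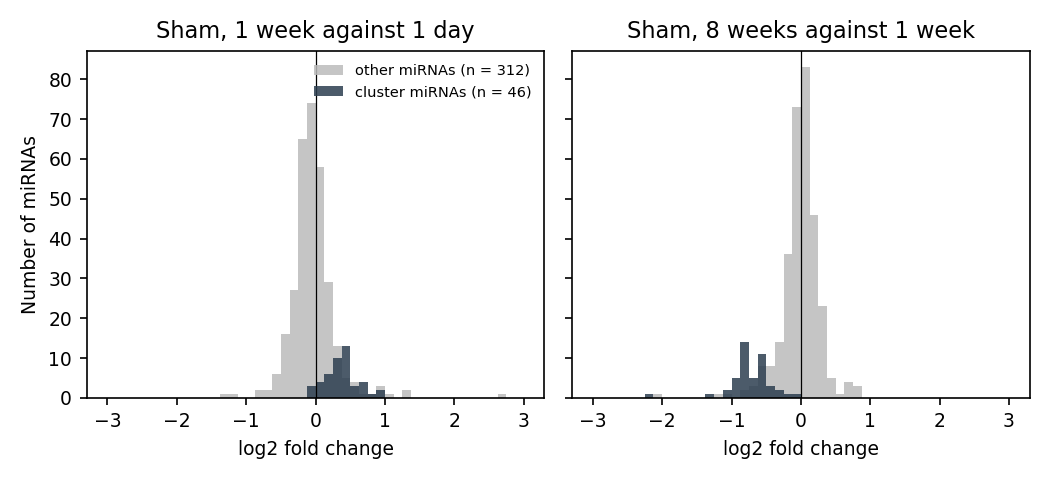
Distribution of log2 changes between sham groups, 1 week against 1 day and 8 weeks against 1 week, for the 46 tested cluster miRNAs and the 312 other tested miRNAs. The cluster lies to the right of the other miRNAs in the first comparison, with a median of 0.38, and to the left in the second, with a median of -0.74.

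The long RNAs of the domain were measured in the separate mRNA libraries, as FPKM without counts, so their depth is unknown. They were tested with limma on log2(FPKM + 1), a scale that understates changes of genes with low FPKM. The median over all 12858 tested genes was itself 0.09 at the early, 0.79 at the middle and 0.52 at the late stage, so changes have to be read against these shifts.

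Meg3, the non-coding RNA at the start of the maternal unit, was at 2.87, 2.68 and 2.47 FPKM in the sham libraries of 1 week and at 41.5, 39.1 and 36.9 in the MI libraries. This was a log2 change of 3.45 ± 0.20 (adjusted p of 6.89e-10 by limma) and was 2.78 under quantile normalization and 2.58 under scaling by median ratios. Rian (also known as Meg8) was at 2.35, 1.76 and 1.89 in sham and at 29.2, 30.8 and 23.0 in MI, a change of 3.25 ± 0.21 (adjusted p of 1.64e-09). In both genes the MI libraries were far above the sham libraries.

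Mirg, the non-coding RNA whose annotated gene holds some of the distal hairpins, was much lower, at 0.224, 0.224 and 0.0979 in sham and at 2.44, 2.42 and 1.56 in MI (1.40 ± 0.12, adjusted p of 3.14e-08). Dio3, the paternally expressed deiodinase that inactivates thyroid hormone, was at 0.0328, 0.0165 and 0.0484 in sham and at 1.74, 1.73 and 1.77 in MI (1.41 ± 0.15, adjusted p of 2.51e-07). Dlk1, a Delta-like membrane protein, and Rtl1, a retrotransposon-derived protein, did not pass the filter of 1 FPKM in at least 3 libraries. They were at or below 0.196 and 0.124 FPKM in every library and were not tested. At 1 week Dlk1 was at 0 in each sham library and at 0.196, 0.0773 and 0.0506 in MI. Rtl1 was at 0.0109, 0.0383 and 0.0428 in sham and at 0.124, 0.108 and 0.102 in MI. These levels are very low, and the share of all genes whose groups do not overlap was not counted, so no change is read from them.

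All 4 tested genes of the 6 in the imprinted core were thus higher at 1 week, where 72.8% of all genes were called higher and 16.5% lower. Mirg and Dio3 were under 1 FPKM in every sham library and passed the filter only through MI libraries. These 2 genes therefore had to be higher in MI to be tested. Meg3 and Rian were at 1 FPKM or more in every sham library. At 8 weeks all 4 were higher as well, beside 70.4% higher and 10.6% lower of all genes, and at 1 day none was called, beside 39.7% and 30.6%. Meg3 was at 2.32, 1.79 and 2.21 in sham and at 2.49, 2.21 and 2.28 in MI at 1 day, and the groups overlapped (adjusted p of 0.678). At the same stage Dio3 was at 0.0172, 0 and 0 in sham and at 0.199, 0.195 and 0.209 in MI. These groups did not overlap, and the log2 change of 0.26 ± 0.15 did not pass (adjusted p of 0.141), though it passed with a pseudocount of 0.1.

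At 8 weeks Meg3 was at 2.17, 1.30 and 1.33 in sham and at 23.3, 12.5 and 28.6 in MI (3.05 ± 0.20, adjusted p of 9.33e-09). Rian was at 1.43, 1.12 and 1.00 in sham and at 5.50, 7.95 and 14.3 in MI (2.14 ± 0.21, adjusted p of 3.96e-07). Between sham groups none of the 4 was called. The log2 changes of Meg3 were 0.24 from 1 day to 1 week (adjusted p of 0.796) and -0.51 from 1 week to 8 weeks (adjusted p of 0.380). Of all genes 0.459% were higher and 0.957% lower in the first of these, and 0.42% and 0.428% in the other. The MI libraries of the late stage varied widely, and library 3 was the highest for both. For Mirg the change was 0.90 ± 0.12, and it did not pass after quantile normalization (adjusted p of 0.0501). Between 1 week and 8 weeks the effect became smaller in 3 of the 4 (Rian, Mirg and Dio3), beside 29.9% of all genes with a lower value. The calls for Mirg and Dio3 were lost on the log2(FPKM + 0.1) scale. For Rian the difference was -1.11 ± 0.30 (adjusted p of 0.00786), while the difference of -0.40 ± 0.29 for Meg3 did not pass (adjusted p of 0.262).

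**Figure D5:**
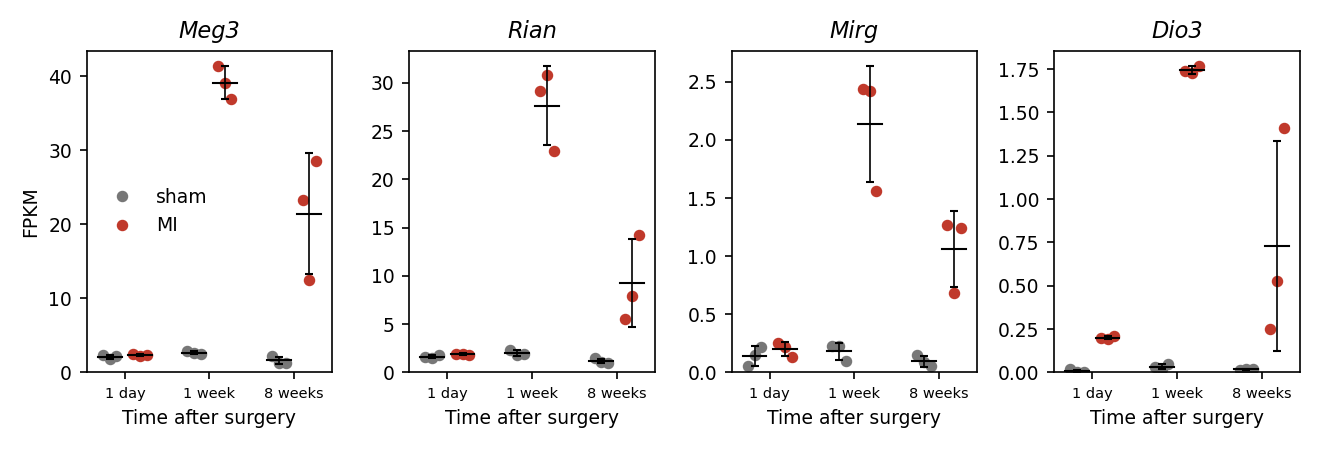
FPKM of Meg3, Rian, Mirg and Dio3 in each of the 18 mRNA libraries. Each point is a library and bars give mean ± s.d. of 3 libraries, sham in grey and MI in red. In all 4 the MI libraries at 1 week lie above all sham libraries, and the MI libraries at 8 weeks are spread, for Meg3 from 12.5 to 28.6 FPKM.

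The promoter of Meg3 is shown because Meg3 lies first among the maternal non-coding RNAs and moved with the miRNAs. RefSeq lists 2 starts for Meg3, and the window shown runs from 250 bases before to 50 bases after the upstream one, chr12:109540746-109541045 on the plus strand of GRCm38.p6 as RefSeq gives it. Capitals mark a cAMP response element and a TATA box found by a search on both strands.
Meg3 promoter: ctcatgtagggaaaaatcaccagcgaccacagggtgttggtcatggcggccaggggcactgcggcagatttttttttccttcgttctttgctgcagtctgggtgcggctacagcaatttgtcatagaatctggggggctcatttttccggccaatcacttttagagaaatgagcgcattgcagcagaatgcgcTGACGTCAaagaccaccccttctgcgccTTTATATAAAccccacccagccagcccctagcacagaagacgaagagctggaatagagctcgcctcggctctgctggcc
The cAMP response element TGACGTCA lies at base 194 of this window and is in 1.79% of all 32851 promoter windows of that length. The TATA motif TATAAA begins at base 226, with a second match on the other strand that overlaps it, and is in 13.6% of windows. Neither motif was found in the window of the downstream start (chr12:109545148-109545447), and GGGCGG, the GC box, was found in neither window, beside 35.7% of all windows. These matches describe letters only, and no measurement here shows what binds there.

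Genes that flank the imprinted core were followed for comparison. Of 9 such neighbours 8 were tested, and 5 were higher and 1 lower at 1 week with a median of 0.77, close to the 0.79 of all genes. After quantile normalization 3 were higher and 3 lower. Evl, an actin regulator, had the largest change, 1.46 ± 0.13, which was 0.67 after quantile normalization. Yy1, a zinc finger transcription factor, had 1.04 ± 0.12, and Dync1h1, the heavy chain of cytoplasmic dynein, 1.14 ± 0.12, which were 0.33 and 0.52 after quantile normalization. Degs2 had 0.96 ± 0.11 and was not called after quantile normalization. Ppp2r5c fell by 0.55 at 1 day and had 0.58 ± 0.08 at 1 week, a sign that turned with both other scalings. Wars and Wdr25 were not called at any stage, though both were lower at 1 week under both other scalings, and Begain did not pass the filter. Slc25a29, a mitochondrial amino acid carrier, fell by 1.51 at 1 day and by 0.67 at 1 week. Of 19 tested imprinted genes of other loci, 15 were higher and 3 lower at 1 week (12 and 3 after quantile normalization), near the 72.8% of all genes called higher. Those higher included Dcn, a matrix proteoglycan of fibroblasts, with 2.12 ± 0.26, H19 with 3.68 ± 0.38 and Igf2r, a receptor for insulin-like growth factor 2, with 1.51 ± 0.12. Gnas, the most abundant of them, had 0.53 ± 0.08 and was lower (-0.44) under scaling by median ratios. At 8 weeks 13 were higher and 4 lower, and 6 and 6 after quantile normalization, beside 70.4% of all genes higher.

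Other miRNAs of chromosome 12, outside the cluster, are given for comparison. miR-345-5p was lower at all 3 stages, with log2 changes of -0.90, -0.71 and -1.12, although with library totals alone it was higher at 1 week, at 0.43. miR-345-3p was lower as well, with -1.01, -1.22 and -1.04, and was not called at 1 week or at 8 weeks with library totals alone. miR-203-3p was called lower at 1 week and 8 weeks, with -1.62 and -0.68, and turned to 0.14 at 8 weeks with library totals alone. miR-342-3p, whose hairpin lies within Evl, was lower at 1 day (-0.25), higher at 1 week (0.88) and at -0.03 at 8 weeks, and with library totals alone these values were 0.34, 2.02 and 0.78, all called higher. miR-1247-5p, from the minus strand beside Dio3 and not a member by the rule, was lower at 1 day (-1.80) and higher at 1 week (1.13) and 8 weeks (2.39).

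The tissue itself differed between the groups. The counts of markers stand beside 39.7%, 72.8% and 70.4% of all genes called higher at the 3 stages and 30.6%, 16.5% and 10.6% called lower. All 10 cardiomyocyte markers were lower with MI at 1 day and 1 week and 7 of 10 at 8 weeks. Their summed level at 1 week was 32919 to 37596 FPKM in sham and 2367 to 7360 in MI. All 10 markers of activated fibroblasts were higher at 1 week, with a sum of 222 to 262 in sham and 14786 to 18855 in MI, and at 8 weeks, with 97.6 to 102 against 1078 to 4150. At 1 day 4 of the 10 were higher. Markers of macrophages were higher in 4, 7 and 7 of 7 at the 3 stages, and markers of neutrophils in 5, 4 and 3 of 5. After quantile normalization the neutrophil counts at 1 week and 8 weeks were 1 and 0, and with median-ratio scaling 1 and 2. Cardiomyocyte markers called lower numbered 7 at 1 day and 6 at 8 weeks after quantile normalization, and 10 at both with median-ratio scaling. Neutrophil markers peaked at 1 day, with a sum of 5941 to 9747 in MI.

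Markers of resident fibroblasts were higher in 4 of 5 at 1 week and in 5 of 5 at 8 weeks, beside 72.8% and 70.4% of all genes. At 8 weeks the summed adipocyte markers ran from 1.64 FPKM in MI library 1 to 1215 in library 3, and the skeletal muscle markers up to 229, both highest in library 3. The part of these marker changes in the values of the cluster was not tested.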

How the data were processed

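Small RNA and mRNA of pooled left ventricles from MI and sham mice were sequenced. The small RNA table deposited by the authors gives a raw count of reads per mature miRNA, RPM computed by the authors over the listed miRNAs, and normalized log2 values of the authors. Its mapper and miRBase release are not given in the sources used here. For the mRNA the deposited table of the authors gives FPKM and normalized log2 values, and per the labels TopHat2 2.0.13, Bowtie2 2.2.3 and Cufflinks 2.2.1 were used with mm10. Deposited fold and p-value columns of the authors' own comparisons were not used.

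1 edgeR model (4.0.16, quasi-likelihood test, TMM) of the 6 groups, with 12 residual degrees of freedom, was fitted in R 4.3.3 to the counts of the 358 miRNAs with RPM of 10 or more in 3 or more libraries. The dispersion shared by all miRNAs was 0.0238 (15.4% coefficient of variation). limma 3.58.1 was fitted in the same model to log2(FPKM + 1) of the 12858 genes that had an FPKM of 1 or more in 3 or more libraries. MI was compared with sham of the same stage, MI effects were compared between stages, and sham groups were compared between stages. P-values are two-sided and adjusted by Benjamini-Hochberg over all features tested, with a threshold of 0.05. Standard errors of miRNA changes are approximate, from the log2 change and the F statistic.

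DESeq2 1.42.0, limma on log2(RPM + 1) and log2(RPM + 10), other scalings and filters, and leaving out each library were alternatives. The test scripts were tested on simulated data. No 2 libraries of a group agreed within sampling noise (chi-square per degree of freedom of at least 96.7), so none was treated as a library deposited again. This does not show that they came from separate animals. The rule for the members and the gene lists were chosen with earlier results of these data known. Named with values were the 3 most abundant members of each positional group, the 3 largest rises and falls per stage, members whose arms or seeds made them of interest, the genes of the locus with their neighbours, comparison miRNAs of chromosome 12, and the 4 most abundant imprinted genes elsewhere. miR-410-3p, miR-379-5p, miR-494-3p, miR-323-3p, miR-758-3p and miR-1247-5p were named after their values were seen. Sequences and positions are from RefSeq, GRCm38.p6.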

Additional observations from a re-analysis of the deposited data

Results flagged for a closer look

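Several results were singled out because the MI effect differed between stages in the test of that difference, with sham libraries of each stage as its own control. The effect on the cluster was larger at 1 week than at 1 day in 46 of 46 tested members, beside 39.7% of all tested miRNAs. 26 of the 46 passed the filter only with the MI libraries of 1 week, so a high level there was needed for them to be tested. The effect was also larger in all 11 members that pass on sham libraries alone. Without the filter it was larger in 62 of 63. For the long RNAs the effect at 1 week minus that at 1 day was, on the log2 scale, 3.35 for Meg3, 3.12 for Rian, 1.32 for Mirg and 1.15 for Dio3. The median over all tested genes was 0.56, and 60% of them had a higher value. Mirg and Dio3 passed the filter only through MI libraries. From 1 week to 8 weeks the effect was smaller in 35 members and larger in 1, which was miR-136-5p with a difference of 1.02. Of all tested miRNAs 33.2% had a lower and 27.4% a higher value. Of the 11 members that pass on sham libraries alone, 8 had a smaller and 1 a larger effect. Over that interval the effect changed by -1.11 for Rian, -0.49 for Mirg and -0.70 for Dio3. Of all tested genes 29.9% had a lower value, and the change for Meg3 did not pass. On the log2(FPKM + 0.1) scale Mirg and Dio3 were no longer called. Mirg also lost its call once the mRNA values were scaled by quantiles or by median ratios. Both comparisons between stages use the 1-week libraries, so they share samples.

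A further value comes from outside the cluster. miR-1247-5p, whose mature sequence lies on the minus strand beside Dio3 (chr12:110278094-110278115), was higher with MI than in the sham control libraries at 8 weeks by 2.39 on the log2 scale. It was at 10.5, 7.64 and 5.73 scaled CPM in the sham libraries and at 47.4, 33.7 and 43.5 in the MI libraries, so the groups did not overlap.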

How the results depend on the processing

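All 46 tested members stayed higher at 1 week under each scaling, test, pseudocount and replicate block tried. At 8 weeks all 46 did as well, except with limma on log2(RPM + 10), where 45 were called. The effect at 1 week exceeded that at 1 day in 45 with RLE factors or DESeq2 and 44 with the authors' log2 values. Stricter filters left fewer to test. 10 were tested with a mean RPM of at least 50, and 11 with the filter on sham libraries alone, and all were higher at both stages and in the effect at 1 week minus that at 1 day. The smaller effect at 8 weeks than at 1 week (35) came to 9 and 8 members under these filters. The larger effect (1) was called in 2 members with RLE factors and without a filter, and in 3 with upper-quartile factors and with the authors' log2 values.

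The counts at 1 day depended on the setting. Members higher (5) numbered 9 with RLE factors, 30 with library totals alone, 11 with DESeq2, 15 without a filter, 30 and 15 with limma on log2(RPM + 1) and log2(RPM + 10), 2 with the replicate block, 13 with each stage fitted alone, 1 with upper-quartile factors, 2 with the sham filter and 1 with the authors' log2 values. Members lower (4) numbered 0 with library totals, the higher RPM minimum, both limma fits and the sham filter, 2 without a filter and 7 with upper-quartile factors. With library totals, all tested miRNAs split into 201 higher and 38 lower at 1 day in place of 98 and 126, into 252 and 60 at 1 week in place of 170 and 142, and into 231 and 68 at 8 weeks in place of 141 and 145.

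Between sham groups, members higher at 1 week than at 1 day (4) numbered 10 with RLE factors, 10 with library totals, 12 with DESeq2, 2 without a filter, 1 with limma on log2(RPM + 10), 0 with the replicate block, 13 with upper-quartile factors and 0 with the sham filter. Members lower at 8 weeks than at 1 week (24) numbered 7 with the higher RPM minimum, 9 with limma on log2(RPM + 10), 6 with the sham filter and 15 with the authors' log2 values.

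The ratio of the summed level by RPM share was 1.66, 15.1 and 6.78 at the 3 stages. Among locus transcripts 1, Dio3, was higher at 1 day (0) with log2(FPKM + 0.1), quantile normalization, median-ratio factors and each stage fitted alone. With a mean FPKM of at least 5 only Meg3 and Rian were tested, and 2 were higher at 1 week, at 8 weeks and at 1 week minus 1 day. 1 transcript had a smaller effect at 8 weeks than at 1 week (3) with that minimum and with log2(FPKM + 0.1). The difference for Mirg did not pass with quantile normalization or median-ratio factors either.

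Leaving out each library in turn gave 2 to 8 members higher and 0 to 5 lower at 1 day. It gave 27 to 46 higher at 1 week, at 8 weeks and at 1 week minus 1 day, with 27 of 27 tested without any 1 MI library of 1 week, because fewer members then passed the filter. It gave 22 to 39 members with a smaller effect at 8 weeks, 0 to 10 higher between the first sham groups, 13 to 29 lower between the later sham groups, and 0 to 1 locus transcripts higher at 1 day.

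The labels give a replicate number to each library but do not say that a number is shared between groups. Deviations of same-numbered MI and sham libraries correlated between -0.45 and 0.22 for small RNA, with 3 of 9 pairs over 0.1, and 5 of 9 MI libraries were closest to the sham library of their number. The numbers were therefore not taken as pairs. With the replicate block the smaller effect at 8 weeks was called in 32 members.

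The alternatives with upper-quartile factors, the sham filter, the authors' log2 values and the sum without single libraries or without miR-127-3p were chosen after seeing the data. Rare members limit precision: those under the filter had as few as 1 read in a sham library, and the depth of the mRNA libraries is unknown.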
